A study of Mus musculus with 9 samples.

Results

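The transcripts described here are 88 array probes whose level in mouse colon was higher in PAMK-treated colitis than in both untreated colitis and healthy colon, while healthy colon and untreated colitis differed little. They were chosen from 151603 probes for transcript clusters, out of 166924 probes on the array. A probe was kept if its mean log2 intensity in the DSS+PAMK group was at least 1 above the means of both other groups, its lowest DSS+PAMK array was above all 6 other arrays, the other 2 group means differed by less than 1, and the probe was well above background on all 3 DSS+PAMK arrays. The last condition alone left 70834 probes. Because these values chose the members, the differences between groups given below are a description and carry no test. All mice were male C57BL/6J at 10 weeks of age. Dextran sodium sulfate (DSS) was given at 3% in the drinking water over 7 days to the DSS and DSS+PAMK groups, while Control mice had distilled water alone. PAMK was then given by gavage at 200 mg/kg to the DSS+PAMK group on days 8 to 14, and both other groups received saline in its place. Each group had 3 arrays of total colonic RNA, and nothing in the labels says how many mice each sample held.

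DSS is a sulfated polysaccharide that injures the colonic epithelium, so that the barrier opens and immune cells enter the mucosa. PAMK is a polysaccharide from the rhizome of Atractylodes macrocephala, a plant used in traditional Chinese medicine for digestive disorders. The tissue mixes absorptive and secretory epithelial cells with immune cells, muscle and nerve, and in such a sample more cells of a type and more RNA per cell cannot be told apart. The array held probes of 60 bases for coding, long noncoding and circular RNAs. The members are named by the number of the transcript cluster that the probe was designed for.

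Of the 88 members, 3 carried a gene symbol in the sheets that accompany the study, and 1 more was listed there as a long noncoding RNA without a symbol. The paper cites these sheets for its lists of genes changed between the groups. None of the others was listed there. Gene names could be attached to 931 probes of the array in all, so a member without a symbol is unnamed here and may still belong to a known gene. The sheets gave a symbol for 183 probes. The other names came from a match of the whole probe to a promoter window of 300 bases. Such a name goes by position, and the probe may not read that gene's transcript. The members are therefore shown by the oligonucleotides themselves, printed 5′ to 3′ as spotted.

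1 Control array stood apart among the members and is given before the results. Control replicate 2 was the highest of the 3 Control arrays in 73 of 88 members (83.0%), against 35.2% of the 86434 cluster probes tested that had a value on every array. It was also the highest of all 6 arrays outside the DSS+PAMK group in 45 members (51.1%, against 19.1%). The median level of the members was 3.43 on Control replicate 1, 4.62 on Control replicate 2 and 3.81 on Control replicate 3. The DSS+PAMK arrays had medians of 5.36, 5.28 and 5.30, and the DSS arrays 4.34, 4.06 and 4.09. All levels are log2 intensities after quantile normalization.

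The members with a symbol are shown first, since they are the members that can be tied to a gene.
Igfn1: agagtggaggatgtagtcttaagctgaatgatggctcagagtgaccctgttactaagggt
Txndc16: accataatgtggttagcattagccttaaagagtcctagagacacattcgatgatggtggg
Tmem132c: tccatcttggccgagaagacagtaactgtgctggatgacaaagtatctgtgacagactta
lncRNA without a symbol (cluster 82737): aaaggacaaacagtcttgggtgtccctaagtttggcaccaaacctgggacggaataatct
Igfn1 encodes a protein with immunoglobulin-like and fibronectin type III domains. Its probe read 5.0, 5.04 and 3.76 on the Control arrays, 4.37, 4.63 and 4.57 on the DSS arrays, and 5.64, 6.08 and 6.11 on the DSS+PAMK arrays. The difference of means was 1.34 from Control and 1.42 from DSS on the log2 scale. Control replicate 3 was the low array of its group, and the lowest DSS+PAMK array lay 0.60 above the highest of the others. This was the widest gap among the named members and the eighth widest of all.

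Txndc16 encodes a protein with thioredoxin domains. It read 2.97, 4.83 and 3.35 in Control, 4.17, 4.28 and 4.33 in DSS, and 5.41, 5.12 and 5.52 in DSS+PAMK. The DSS arrays were close together (SD 0.08, n = 3), while Control spanned a wider range because of replicate 2 (SD 0.98, n = 3). DSS+PAMK was 1.63 above Control and 1.09 above DSS on the log2 scale. Tmem132c encodes a membrane protein of the TMEM132 family. It read 3.06, 4.21 and 3.42 in Control, 3.40, 2.99 and 3.57 in DSS, and 4.78, 4.62 and 4.53 in DSS+PAMK, and was well above background on 1 of the 3 DSS arrays. The gap of Tmem132c was 0.33, and again the nearest array was Control replicate 2. The long noncoding RNA of cluster 82737 was the brightest of these 4. It read 4.92, 6.18 and 4.78 in Control, 5.65, 5.39 and 5.68 in DSS, and 6.54, 6.79 and 6.79 in DSS+PAMK, with differences of 1.41 from Control and 1.13 from DSS. In all 4 of these members Control replicate 2 exceeded every DSS array.

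Among the brightest members, 2 sets moved together over the 6 arrays outside the DSS+PAMK group, in opposite ways with respect to Control replicate 2. The first set had 3 members, shown here because Control replicate 2 was low in them, unlike in most members.
mclstr_73111_1094_24: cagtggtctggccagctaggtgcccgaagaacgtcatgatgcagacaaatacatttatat
mclstr_50718_1331_14: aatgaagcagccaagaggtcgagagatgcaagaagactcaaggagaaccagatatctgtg
mclstr_78170_659_32: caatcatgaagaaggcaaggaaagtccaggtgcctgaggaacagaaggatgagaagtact
Their levels correlated over those 6 arrays with r between 0.997 and 0.999. The probe of cluster 73111 read 11.47, 11.25 and 12.26 in Control, 11.45, 10.92 and 12.78 in DSS, and 13.29, 13.71 and 13.25 in DSS+PAMK. Cluster 50718 read 9.50, 9.29 and 10.38 in Control, 9.55, 8.98 and 10.88 in DSS, and 11.28, 11.76 and 11.27 in DSS+PAMK. Cluster 78170 read 8.68, 8.47 and 9.49 in Control, 8.62, 8.22 and 10.02 in DSS, and 10.49, 10.89 and 10.41 in DSS+PAMK. In all 3, Control replicate 2 was the lowest Control array, and DSS replicate 3 was the array nearest to the DSS+PAMK group. The differences from Control were 1.75, 1.71 and 1.72, and those from DSS were 1.70, 1.63 and 1.64. The gaps of 0.47, 0.38 and 0.39 were wider than the error that the scanner software gives for the spots on either side, 0.19 in each case.

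The array also held a probe of another cluster, 17367, that is the exact reverse complement of all 60 bases of the probe of cluster 73111. It was well above background on all 9 arrays. It read 7.63, 7.60 and 7.82 in Control, 7.74, 7.46 and 7.79 in DSS, and 7.85, 7.97 and 7.76 in DSS+PAMK. Its DSS+PAMK mean was 0.18 above Control and 0.20 above DSS, where the member on the facing strand was 1.75 and 1.70 above.

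The second set had 4 members, shown because they were nearly as high on Control replicate 2 as on the DSS+PAMK arrays.
mclstr_22182_2014_12: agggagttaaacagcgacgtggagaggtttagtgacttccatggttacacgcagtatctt
mclstr_26917_2505_16: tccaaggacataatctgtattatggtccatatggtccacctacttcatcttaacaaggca
mclstr_144501_101_16: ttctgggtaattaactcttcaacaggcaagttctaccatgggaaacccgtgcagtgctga
mclstr_7857_3626_9: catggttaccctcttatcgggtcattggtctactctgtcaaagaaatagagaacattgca
The probe of cluster 22182 read 10.22, 12.40 and 11.09 in Control, 12.01, 10.43 and 10.20 in DSS, and 12.50, 12.75 and 12.49 in DSS+PAMK. Cluster 26917 read 10.20, 12.26 and 11.0 in Control, 11.91, 10.23 and 9.94 in DSS, and 12.31, 12.60 and 12.42 in DSS+PAMK. Cluster 144501 read 9.22, 11.80 and 9.92 in Control, 10.94, 9.25 and 9.14 in DSS, and 12.09, 12.13 and 11.91 in DSS+PAMK. Control replicate 2 and DSS replicate 1 were high in each of these, Control replicate 3 was intermediate, and the other arrays were low. The probe of cluster 7857 followed the same order, with 7.81, 10.39 and 9.19 in Control, 10.03, 8.50 and 8.23 in DSS, and 10.55, 10.77 and 10.49 in DSS+PAMK. Within the set r lay between 0.959 and 0.996. The gaps were 0.09, 0.06, 0.11 and 0.10, all below the spot error of 0.19, so the DSS+PAMK arrays were not separated from Control replicate 2 beyond the error of single spots.

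**Figure D1:**
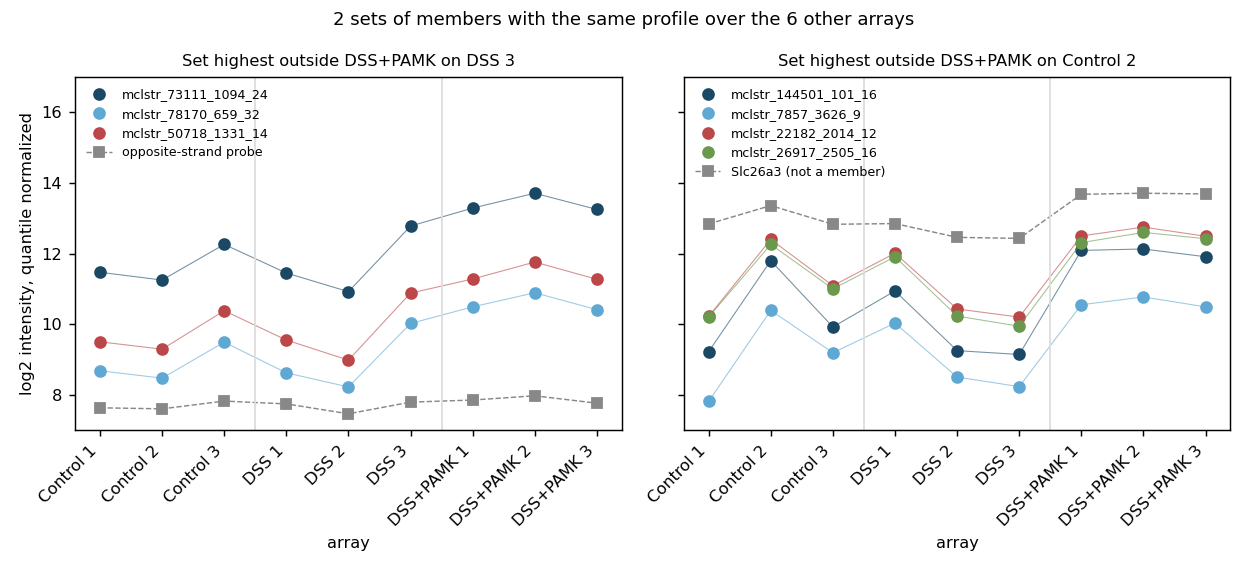
Log2 intensity of the 2 sets on each of the 9 arrays (x axis), with 1 point per array and lines that link the points of a probe, replicates having no order. In the left panel the opposite-strand probe stayed between 7.46 and 7.97 while the 3 members were lowest on DSS 2; in the right panel the 4 members were nearly as high on Control 2 as on the DSS+PAMK arrays, and Slc26a3, which is not a member, is drawn beside them.

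Grouping members by a correlation above 0.98 over the 6 arrays gave 6 sets with 17 members in all. Of the 3828 pairs of members, 13 passed this limit (0.34%), against 0.0709% of the pairs of tested cluster probes. All points of such a correlation share the same 6 RNA samples, and the sets were formed after the values were seen. The tested probes were not matched to the members in level or spread, which bear on r, so nothing is read from the 2 shares. Of the other 4 sets, 1 joined clusters 11741, 129833 and 89024, and another joined 26853, 151658 and 20631. The remaining ones were the pairs 39932 with 48074 and 46459 with 65126. Control replicate 2 was the highest Control array in all 10 of these members.

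The members with the widest gap between the lowest DSS+PAMK array and the highest other array are shown next, because in them the groups were farthest apart. Igfn1, printed above, is the remaining one of the 10.
mclstr_105199_593_10: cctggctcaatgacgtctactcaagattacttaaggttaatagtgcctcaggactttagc
mclstr_125393_295_18: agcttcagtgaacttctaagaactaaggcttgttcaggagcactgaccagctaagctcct
mclstr_138643_291_22: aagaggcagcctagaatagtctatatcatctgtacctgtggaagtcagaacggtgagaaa
mclstr_57978_1354_20: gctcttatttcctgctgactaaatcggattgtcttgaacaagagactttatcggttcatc
mclstr_115030_517_20: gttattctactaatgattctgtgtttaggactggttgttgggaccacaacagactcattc
mclstr_78901_501_17: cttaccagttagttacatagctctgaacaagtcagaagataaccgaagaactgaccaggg
mclstr_22902_1262_9: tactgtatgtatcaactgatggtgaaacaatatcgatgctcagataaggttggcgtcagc
mclstr_34646_70_14: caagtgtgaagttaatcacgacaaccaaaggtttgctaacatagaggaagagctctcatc
mclstr_20898_783_9: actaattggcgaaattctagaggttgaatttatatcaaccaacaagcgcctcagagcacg
The widest gap, 0.83, belonged to the probe of cluster 105199. It read 2.28, 3.28 and 3.10 in Control, 2.18, 2.86 and 3.53 in DSS, and 4.47, 4.36 and 4.57 in DSS+PAMK. No Control array was well above background there, so the fold over Control is given as a nominal bound, 2.72-fold. In such bounds the dim array is set to the lowest signal that was well above background on it, or to its own reading if that was higher. That lowest signal is taken over all probes and is no detection limit of a given spot. Cluster 22902 read 3.41 on Control replicate 2, above the 3.22 of that array, yet was not well above background there. The bounds also leave out the error of single spots, so they are nominal. Cluster 125393 read 3.13, 3.86 and 2.98 in Control, 4.0, 1.19 and 3.54 in DSS, and 5.29, 5.05 and 4.75 in DSS+PAMK. DSS replicate 2 was near the bottom of the scale there, and it lowered the DSS mean to 2.91 (SD 1.51, n = 3).

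Cluster 138643 read 4.08, 4.01 and 2.65 in Control, 3.88, 3.62 and 3.51 in DSS, and 5.09, 5.19 and 4.74 in DSS+PAMK. Cluster 57978 read 3.08, 4.69 and 3.81 in Control, 5.0, 5.06 and 4.11 in DSS, and 6.00, 5.90 and 5.72 in DSS+PAMK. Cluster 115030 read 2.70, 4.86 and 4.56 in Control, 4.20, 4.94 and 4.18 in DSS, and 6.50, 5.57 and 5.98 in DSS+PAMK. The gaps of these 3 were 0.66, 0.66 and 0.63, above spot errors of 0.26, 0.22 and 0.23, and DSS rather than Control held the nearest array in the latter pair. Cluster 34646 read 3.63, 3.21 and 1.88 in Control, 3.54, 3.05 and 3.53 in DSS, and 4.24, 4.50 and 4.40 in DSS+PAMK.

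The last 3 were dim outside the treated group. Cluster 78901 read 4.68, 4.95 and 4.13 in DSS+PAMK and at most 3.20 in Control and 3.52 in DSS, with a nominal bound of 2.94-fold over Control. Cluster 22902 read 4.56, 4.42 and 4.02 in DSS+PAMK and was well above background on none of the 6 other arrays, where it read 2.13 to 3.41. Its nominal bounds were 2.50-fold over Control and 2.26-fold over DSS. Cluster 20898 was also well above background on the DSS+PAMK arrays alone, with 4.96, 4.71 and 4.33, and the bounds were 3.22-fold over Control and 2.61-fold over DSS. In all, 5 members were well above background on none of the 6 other arrays, 9 on no Control array and 13 on no DSS array, while 39 were well above background on all 9 arrays. The largest bound over DSS, 4.88-fold, belonged to cluster 25421, named after its values were seen. It read 1.81, 5.08 and 1.23 in Control, 2.86, 1.89 and 2.70 in DSS, and 5.14, 5.79 and 5.40 in DSS+PAMK. Here too Control replicate 2 was the exception, only 0.06 below the lowest DSS+PAMK array.

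Probes that overlap a member on the same strand give a second reading of the shared bases, while probes on the opposite strand read the facing strand. In all, 5 members shared at least 30 bases with another probe of the array. Besides the facing probe of cluster 73111 described above, the longest overlap was 58 bases on the same strand, shown in capitals.
mclstr_160407_123_1004 (member): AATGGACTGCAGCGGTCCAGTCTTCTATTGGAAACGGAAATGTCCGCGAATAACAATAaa
mclstr_117261_253_8 (not a member): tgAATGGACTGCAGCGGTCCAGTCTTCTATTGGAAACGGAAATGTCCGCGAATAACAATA
The member read 2.74, 4.51 and 2.71 in Control, 3.95, 1.81 and 2.85 in DSS, and 4.97, 4.99 and 4.86 in DSS+PAMK. The overlapping probe read 1.64, 4.95 and 2.40 in Control, 3.83, 2.66 and 1.88 in DSS, and 4.92, 4.90 and 3.88 in DSS+PAMK. The latter was well above background on 4 of the 9 arrays, the DSS+PAMK arrays among them, so most of its other readings lie near background and no fold is given. Both probes were high on Control replicate 2, which lay 1.07 above the lowest DSS+PAMK array of the overlapping probe, and that probe was not a member.

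A second same-strand pair tied the member of cluster 104889 to a probe for a circular RNA, with 35 shared bases in capitals.
mclstr_104889_84_16 (member): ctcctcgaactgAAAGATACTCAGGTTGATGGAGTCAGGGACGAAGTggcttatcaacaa
mmu_circ_0000206_16_14 (not a member): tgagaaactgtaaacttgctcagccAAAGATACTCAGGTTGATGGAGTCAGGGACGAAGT
The member read 4.25, 3.94 and 3.82 in DSS+PAMK, and the circular RNA probe was well above background on none of the 9 arrays. The member of cluster 151658 shared 42 bases with a probe of cluster 124107 that was likewise below that level on all 9 arrays, and the member of cluster 29831 faced a dim probe over 49 bases on the opposite strand. So of the 4 partners on which the stretch was shared only in part, the opposite-strand probe among them, 1 was well above background in the DSS+PAMK group.

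For 1 member the genome position could be read from a match of the whole probe to a RefSeq promoter window. The probe of cluster 11741 lies at chr6:90600016-90600075 of assembly GRCm38.p6, on the strand opposite to Gm15756, and covers bases 76 to 135 before the start of that gene.
mclstr_11741_3987_5: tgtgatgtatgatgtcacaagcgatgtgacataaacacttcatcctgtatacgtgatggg
It read 3.93, 6.33 and 5.05 in Control, 6.34, 5.86 and 5.47 in DSS, and 7.03, 7.39 and 6.57 in DSS+PAMK. Control replicate 1 was low, and DSS+PAMK was 1.89 above Control and 1.1 above DSS.

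Over all 88 members, the DSS+PAMK mean had a median of 5.31 and ran from 3.94 to 17.18, where the median of tested cluster probes was 5.81. There were 55 members under 6 and 12 over 8. The brightest, cluster 114046, was named after its values were seen and read 15.62, 16.59 and 16.06 in Control, 16.90, 15.71 and 15.25 in DSS, and 17.14, 17.48 and 16.92 in DSS+PAMK. Its gap was 0.02. The fitted difference from Control had a median of 1.52 and that from DSS a median of 1.29, against -0.01 and 0.02 over all tested probes. With the 9 members that no Control array showed well above background set to their bound, the first median was 1.42, and with the 13 such members for DSS set to theirs the second was 1.2. Among the 79 members well above background on at least 1 Control array the difference ran from 1.01 to 2.74, and among the 75 for DSS from 1.00 to 2.31. Such members could still be dim on other arrays of that group. The 2.74 was that of cluster 25421, whose Control replicates 1 and 3 read 1.81 and 1.23. The 2.31 was that of cluster 13115, named after its values were seen, with 1.21 on DSS replicate 2. These readings lay below the lowest signal well above background on their arrays (2.68, 2.94 and 3.03). Neither upper end is thus a sure size. DSS was above Control in 58 of 88 members, by a median of 0.15 over the 88.

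The gap that separates the groups was small for most members. Its median was 0.29 and 16 members exceeded 0.5. In 52 members it was wider than the combined error of the spots on either side of it, whose median was 0.25. Every member rested on a single spot per array. Among the 998 probes with 10 spots, the SD between the spots of an array had a median of 0.19 at levels of 4 to 6 and of 0.52 at levels of 2 to 4.

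**Figure D2:**
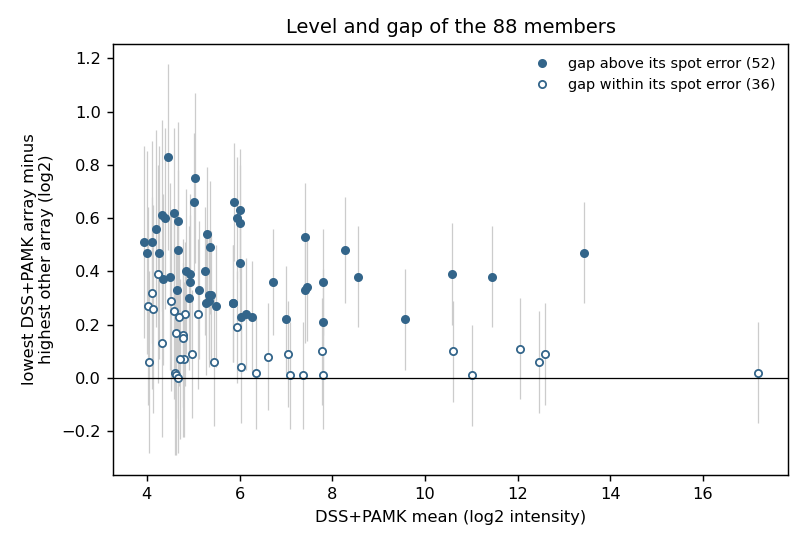
Gap between the lowest DSS+PAMK array and the highest other array (y axis, log2) against the DSS+PAMK mean (x axis, log2 intensity) for the 88 members, with bars for the combined error of the 2 spots that bound the gap. Filled points are the 52 members whose gap was wider than that error; the gaps over 0.5 lie at means below 8.

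Within groups, the median SD of the members was 0.85 in Control, 0.63 in DSS and 0.27 in DSS+PAMK (n = 3 each). Only 45 members were well above background on all Control arrays and 45 on all DSS arrays, and dim spots vary more. The gap condition also favoured members with close DSS+PAMK arrays, so these SDs are not set against those of other probes. Bright members differed too, with a Control SD of 1.33 in cluster 144501 and 0.49 in cluster 114046. What set the spread was not tested. DSS replicate 1 was the highest DSS array in 48 members (54.5%, against 34.7% of tested probes). Control replicate 2 and DSS replicate 1 were both the highest of their groups in 44 members (50%, against 10.9%), which was the most frequent of the 9 combinations. Control replicate 1 was the lowest Control array in 58 members (65.9%, against 39.7%). In DSS+PAMK, replicate 3 was the lowest in 58 members (65.9%, against 35.9%). Control replicate 2 was thus the Control array that lay nearest to the treated group in most members.

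**Figure D3:**
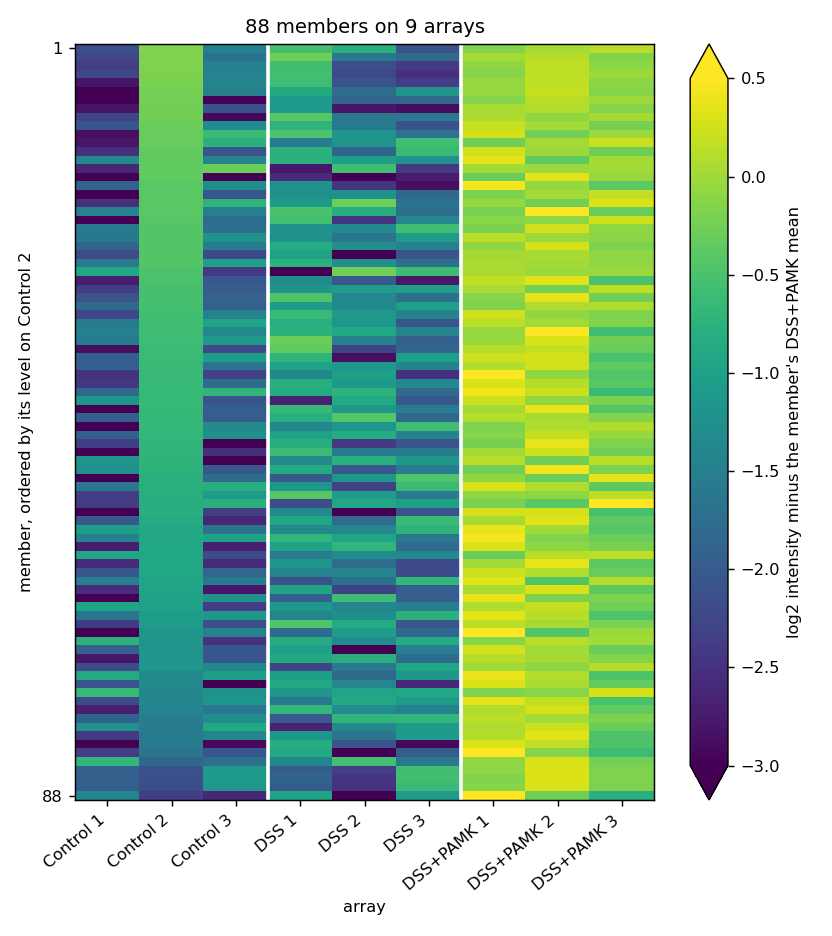
Level of each member (rows, ordered by Control 2) on each array (columns), as log2 intensity minus the mean of its DSS+PAMK arrays. The Control 2 column is brighter than Control 1 and Control 3 in most rows, with 73 of 88 members highest there among the Control arrays, and at the bottom lie the few rows in which it is dark.

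At the threshold used by the study, a fold change of at least 2 with an unadjusted p of at most 0.05, limma called 72 members higher in DSS+PAMK than in DSS. Of all 99622 tested probes, 641 were called in that direction (0.643%). Against Control it called 79 members, with 1648 of all tested probes called (1.65%), and 67 members were called in both comparisons, with 116 probes called in both over all tested (0.116%). With p adjusted by Benjamini-Hochberg over the 99622 probes, limma called 0 members in either comparison, and 0 probes in all. The smallest adjusted p in limma was 0.66 among the members and 0.628 over all probes against DSS, and 0.174 and 0.1 against Control. Both contrasts chose the members and both share the DSS+PAMK arrays, so nothing is read from these counts. All 3 DSS+PAMK arrays lay above all 6 others in 2700 tested probes (2.71%).

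The same conditions applied to the other groups gave 170 transcripts raised only in Control and 233 raised only in DSS, with the detection condition moved to the raised group. Lowered only in DSS+PAMK were 85 transcripts, lowered only in Control 489 and lowered only in DSS 56, detected on all 6 arrays of the other groups. The 88 members were thus fewer than the transcripts raised only in either other group.

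Each array was then left out of the choice in turn, with the normalization over all 9 arrays kept. The arrays it is set against were still those picked for being high or low, so an array with no difference of its own would also fall on the members' side more often than in the share over all probes given beside it. The shares are a description and no size of effect is read from them. Among the 82 probes chosen without Control replicate 1, that array fell below all 3 DSS+PAMK arrays in 76 (92.7%), against 41.6% of all probes that could be chosen. Among the 91 chosen without Control replicate 3 it did so in 90 (98.9%, against 34.7%). Control replicate 2 differed. Without it 294 probes were chosen, and it fell below the DSS+PAMK arrays in 88 of them (29.9%, against 30.8%). Its median difference from the DSS+PAMK mean in those 294 was 0.00. Control replicate 2 thus fell below the treated group in these probes no more often than in probes in general. On some marker genes the same array read near the other Control arrays, with Nos2 at 3.73, Ms4a2 at 1.3 and Fcgbp at 14.50. The DSS arrays read 6.49 to 8.28, 4.82 to 5.79 and 12.57 to 12.93 there. That Ms4a2 reading lay below 3.22, the lowest signal well above background on that array. Itgam at 4.23 and Foxp3 at 4.48 were also near the other Control arrays. On other markers it stood apart from Control replicates 1 and 3. Defa3 read 5.23 against 3.21 and 3.44, and Ifit1 4.34 against 5.40 and 5.85. Cpa3 read 3.50 against 5.02 and 4.38, and Slc26a3 13.36 against 12.84 and 12.83. What set the level of Control replicate 2 in the members was not tested, and the Control means and the number of members rest on that array.

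A left-out DSS array was scored in the same way. DSS replicate 1 fell below all DSS+PAMK arrays in 110 of 152 chosen probes (72.4%, against 42.3%), DSS replicate 2 in 89 of 99 (89.9%, against 31.1%) and DSS replicate 3 in 78 of 90 (86.7%, against 31.9%). A left-out DSS+PAMK array had to exceed all 6 other arrays. DSS+PAMK replicate 1 did so in 97 of 146 (66.4%, against 13.8%), replicate 2 in 111 of 297 (37.4%, against 14.3%) and replicate 3 in 117 of 276 (42.4%, against 12.9%). The sets chosen without 1 array overlap, and no test was made on them. When the other 8 arrays were instead normalized anew without Control replicate 2, 65 of the 88 members were chosen again.

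**Figure D4:**
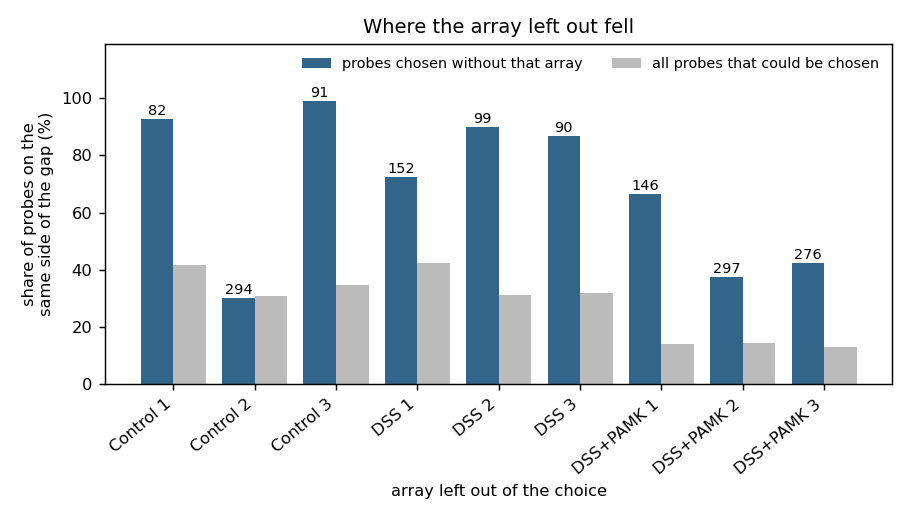
Share of probes (y axis, percent) for which the array left out of the choice (x axis) lay below all DSS+PAMK arrays (Control and DSS) or above all 6 other arrays (DSS+PAMK); blue bars are the probes chosen without that array, with their number above, and gray bars all probes that could be chosen. The gray share is not that of an array without a difference, since the arrays it is set against were picked; for Control 2 the shares are 29.9% and 30.8%.

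The arrays lay on 3 slides, scanned on 1 day. The Control arrays and DSS replicate 1 shared a slide, DSS replicates 2 and 3 shared another with DSS+PAMK replicates 1 and 2, and DSS+PAMK replicate 3 lay on the last. No slide held both Control and DSS+PAMK, so slide and group cannot be told apart in that comparison. Within the slide that held DSS and DSS+PAMK, 2 arrays each, the members differed by a median of 1.53, from 0.44 to 3.32, and 77 of 88 by at least 1. These arrays were among those that chose the members, so a difference of about this size was largely set by the choice. No share over all tested probes is given beside it, and nothing is read from it about the slides. DSS+PAMK replicate 3 on the last slide was lower than the other DSS+PAMK arrays by a median of 0.27. With slide as a block in limma, 46 members were called against Control in place of 79, and 60 against DSS. In that fit Control is reached only through DSS replicate 1, the only DSS array on the Control slide. DSS+PAMK replicate 3, alone on its slide, adds nothing to it. No share over all tested probes is given for that fit, and both contrasts chose the members, so nothing is read from these counts.

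The conditions had sharp edges, and 51 further probes missed only the distance from Control, 243 only the distance from DSS, 151 only the gap, 21 only the closeness of Control and DSS, and 199 only the detection. Just inside the distance from Control lay clusters 26853 (1.01), 132350 (1.04) and 28661 (1.04), and just outside 72502 (0.995), 88967 (0.975) and 130422 (0.971). For the distance from DSS these were 19496 (1.00), 34646 (1.01) and 28661 (1.01) inside, and 25260 (0.997), 136665 (0.996) and 121741 (0.995) outside. The smallest gaps inside were those of clusters 79106 (0.00418), 20631 (0.00566) and 28661 (0.00618), and the nearest outside were 111204 (-0.00356), 61446 (-0.00941) and 121893 (-0.0306). Control and DSS means differed most in clusters 13112 (0.995), 89024 (0.988) and 12149 (0.961) among the members, and 32852 (1.06), 56864 (1.06) and 80178 (1.11) were just outside.

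Among named probes outside the members, those whose profile over the 9 arrays was most like the members' mean were picked after the values were seen, from 412 named probes that spanned at least 1 on the log2 scale. Of the 931 names on the array, 183 came from the sheets, and the others rested on a promoter window alone. Which source named each gene given here and in the next paragraph is not stated. A probe named by its window may not read that gene's transcript. Sytl1, an effector of vesicle transport, correlated at 0.95 and read 8.25, 9.43 and 8.93 in Control, 8.87, 8.62 and 8.57 in DSS, and 9.74, 9.71 and 9.64 in DSS+PAMK. Slc5a6, the sodium-dependent multivitamin transporter, also correlated at 0.95, with 7.41, 8.78 and 7.81, then 8.03, 7.63 and 7.92, then 8.90, 8.92 and 8.74. Both were again high on Control replicate 2. Itih5, of the inter-alpha-trypsin inhibitor family, followed at 0.94. Its DSS+PAMK mean was 0.85 above Control and 1.05 above DSS. Without regard to name, 46 tested probes correlated above 0.95, and 11 of these were members.

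Slc26a3, the chloride-bicarbonate exchanger of absorptive colonocytes, correlated at 0.88 with the members' mean and at 0.91 with the 4-member set. It read 12.84, 13.36 and 12.83 in Control, 12.85, 12.46 and 12.43 in DSS, and 13.68, 13.71 and 13.69 in DSS+PAMK, so that Control replicate 2 was again the Control array nearest to the treated group. It was the only 1 of 8 listed colonocyte markers with a named probe among those tested, and the part of colonocytes in the members' pattern was not tested. Fcgbp, a goblet cell product and the only 1 of 7 goblet markers named, read 14.25, 14.50 and 14.33 in Control, 12.57, 12.75 and 12.93 in DSS, and 14.38, 13.09 and 14.02 in DSS+PAMK. Among the immune lists, a named probe was at hand for 1 of 7 myeloid and 1 of 6 T cell markers, and both had another order than the members. Itgam, an integrin of myeloid cells, read 3.88 to 4.45 in Control, 5.93 to 6.41 in DSS and 4.88 to 4.96 in DSS+PAMK, and Foxp3 of regulatory T cells was likewise highest in DSS, at 6.26 to 6.50. The mast cell genes Cpa3 and Ms4a2 (2 of 5 listed), the interferon-induced Ifit1 (1 of 6) and Nos2, inducible nitric oxide synthase (1 of 5), also had their highest group mean in DSS. Defa3, a Paneth cell defensin of the small intestine, read 3.21, 5.23 and 3.44 in Control, 4.55, 4.25 and 4.33 in DSS, and 2.36, 3.10 and 2.24 in DSS+PAMK. The DSS+PAMK readings of Defa3 lay below the lowest signal well above background on those arrays (3.62, 3.70 and 2.98). Defa3 was thus not detected there, and no size of difference is read from it. The other lists had no named probe. Part of the symbols came from sheets that the paper cites for its changed genes. A marker that changed with DSS or PAMK was thus more likely to be named, and the named markers do not stand for their lists.

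The conditions did not use the sequence of the probes or their place on the array. The members' GC content had a median of 45%, from 40% to 46.7%, against a median of 46.7% over tested cluster probes. An open reading frame through the whole probe was present in 72 members (81.8%), against 80.9%. With the array cut into 4 equal parts, 21, 15, 30 and 22 members lay in them, where each part held 24.5% to 25.3% of tested probes. None of the members held a spot marked as an outlier on any array.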

How the data were processed

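Colonic RNA was labeled with Cy3 by the authors and hybridized to 1-colour Agilent arrays, 3 per group, with groups and replicate numbers taken from the labels. The authors deposited the scanner output of Feature Extraction 10.7.1.1. The processed intensity is linear; the software subtracted background, removed spatial trends and put a surrogate in place of readings not above background, so dim values have no sure order.

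Control spots and spots marked as outliers (318 to 430 per array) were left out. There were 0 saturated spots. The log2 values of the deposited intensity were quantile normalized and the spots of a probe averaged. Tested were the 99622 of 166924 probes that passed the scanner software's test of being well above background on all arrays of 1 group or more, 86455 of them for transcript clusters. Group means were fitted with limma 3.58.1 (lmFit, eBayes) in R 4.3.3 with data.table (1.17.8), with 6 residual degrees of freedom. Between 55.4% and 72.2% of spots per array were well above background. The members were found again with arrays aligned at the 75th percentile and with a normexp background (offset 50). After the alignment at the 75th percentile, the median difference of DSS+PAMK from Control over tested probes was -0.10, where it was -0.01 after quantile normalization. Other alternatives were outlier spots kept, other filters on dim probes, a distance of at least 2, the methods' t-test, replicate number or slide as a block, and each array left out.

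The members, the lists and the tests were chosen with earlier results of these data known. The text names every member with a symbol, the 10 members with the widest gap, members that share sequence with another probe, and the 3 probes on either side of each threshold. The sets of members, and the genes named as like them, were chosen after their values were seen. Symbols came from the sheets that accompany the study and from RefSeq promoter windows (32851 windows, GRCm38.p6). The arrays' own build could not be compared with this one, and no other coordinates are given. 1 probe that met the conditions is not reported here. Marker lists covered colonocytes, goblet cells and other cell types, of which 9 genes had a named probe. Procedures were tested on simulated data. Python 3.11.15, pandas 2.3.3, numpy 2.4.6 and matplotlib 3.10.9 were used for sequences and figures. The labels do not say that replicates came from separate mice, so p-values measure only the spread between these samples, and the number of arrays limits the precision.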

Additional observations from a re-analysis of the deposited data

How the results depend on the processing

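The number of members depended on the processing. It was 88 in the setting reported, 88 with outlier spots kept, 55 after a shift to the 75th percentile (42 of them among the 88), 14 with the normexp background (11 among the 88), 287 with no filter on dim probes, 39 when all 9 arrays had to be well above background, and 3 at a distance of at least 2. With 1 array left out and the other 8 normalized anew it ran from 92 to 296. The report's counts for left-out arrays keep the normalization over all 9 arrays and so differ from these. It was 294 without Control replicate 2, 144 without DSS replicate 1, and 138, 296 and 276 without DSS+PAMK replicates 1, 2 and 3. The normexp setting adds 50 to the linear intensity before log2, which shrinks the log2 differences of dim probes. Of the members, 55 had a DSS+PAMK mean under 6 in the setting reported, so the same distance asks more of them there. The calls with normexp given below meet the same limit. Causes beyond this were not tested, except that fewer arrays give fewer conditions to meet.

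Among the members, 72 were called against DSS and 79 against Control. Those against Control fell to 47 after the shift to the 75th percentile, 16 with normexp, 50 with the methods' t-test and 46 with slide as a block, and were 52 to 83 with 1 array left out (52 without Control replicate 1). Those against DSS fell to 15 with normexp and were 41 to 82 with 1 array left out (41 without DSS replicate 3, 45 without DSS+PAMK replicate 1 or 2). The other settings kept both counts within 1.5 times. With slide as a block, Control is reached through DSS replicate 1 alone. No share over all tested probes is given for these settings, and both contrasts chose the members, so nothing is read from the counts. Replicate numbers did not pair the samples, since same-numbered arrays of different groups correlated in their deviations between -0.20 and 0.09, and the replicate block gave 69 calls against DSS and 76 against Control.

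Of the left-out arrays, DSS replicate 1 fell on the members' side in 68 of 110 chosen probes (61.8%, against 39.1%) after the shift. With normexp it did so in 22 of 35 (62.9%, against 42.1%), where 72.4% was reported. DSS replicate 2 did so in 54 of 54 (100%, against 26.1%) and 13 of 13 (100%, against 30.9%). With normexp, DSS replicate 3 did so in 9 of 9 (100%, against 31.6%). DSS+PAMK replicate 1 did so in 15 of 18 (83.3%, against 13.8%) and replicate 2 in 11 of 16 (68.8%, against 14.3%). These normexp shares rest on few probes. Control replicate 2 stayed at 30.1% (against 31.6%) and 21.9% (against 30.7%). Most members were dim, so their order near background is limited by signal over background, and every member rested on 1 spot per array.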
